A study of Mus musculus with 7 samples.

Results

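The transcription factor NRF2, encoded by *Nfe2l2*, is the main switch of the antioxidant response. In resting cells KEAP1 binds NRF2 and hands it to a ubiquitin ligase for degradation. Electrophiles and oxidants modify KEAP1, NRF2 then enters the nucleus, pairs with a small MAF protein and binds antioxidant response elements near genes for glutathione synthesis, thioredoxin recycling, quinone reduction and heme breakdown. In liver this response protects hepatocytes from reactive drug metabolites. The 10 genes described here are *Nfe2l2*, *Keap1* and 8 genes known as NRF2 targets or antioxidant enzymes of the same response, and they were taken as the probe sets whose only gene symbol was one of these names. All 10 were measured, each by 1 probe set, among 19938 genes tested.

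Primary hepatocytes of C57BL/6J mice were transfected, in culture, with a miR-709 mimic at 1 µg (4 arrays, replicates A to D) or of Cel-239b, a worm miRNA given to the control cells (3 arrays, replicates B to D), and total RNA was taken 24 h later. Both treatments thus share the transfection and a small RNA, and cells without transfection were not analysed here. The question was which transcripts change when miR-709 is raised. Values are log2 signals after RMA, a method that corrects the background, equalises the signal distributions of the arrays and summarises the probes of each set. Neither the methods nor the labels say whether the replicates came from separate mice or isolations, so the p-values reflect how far these arrays differ among themselves, which may be technical. In bulk RNA, fewer cells with a transcript and less transcript per cell cannot be told apart.

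Hepatocyte markers were present on every array, with albumin (*Alb*) at a log2 signal of 13.41 to 13.52. Of 8 measured hepatocyte markers, 3 were higher with miR-709 (*Tat*, *Cps1* and *Hnf4a*) and the mean of the list was 11.41 to 11.50 with Cel-239b and 11.61 to 11.75 with miR-709. No listed marker of Kupffer cells and leukocytes (10), of sinusoidal endothelium (8) or of stellate cells and myofibroblasts (9) passed the test. Of these, 1 of the 10, 0 of the 8 and 1 of the 9 reached a mean log2 signal of 6. The last list did not hold *Acta2*, *Tagln* or *Cnn1*, which the study reported as lower with miR-709 on these arrays. The mean of the Kupffer cell list was 4.45 to 4.51 with Cel-239b and 4.47 to 4.55 with miR-709. Of 5 cholangiocyte markers *Krt19* was lower, and the mean of that list was 6.04 to 6.2 with Cel-239b and 5.90, 5.92, 5.63 and 5.61 on miR-709 replicates A, B, C and D. miR-709 replicates C and D stood apart from the other 5 arrays in interferon response genes. All 14 such genes measured lay above every Cel-239b array on C and on D, against 1 of 14 on A and 1 of 14 on B. After subtracting the level of the Cel-239b arrays, these 14 genes averaged 1.02 on C and 1.02 on D on the log2 scale, and between -0.17 and 0.25 on the other arrays. The 10 genes are therefore given array by array, and also without C and D.

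Antioxidant response elements are read in DNA as the core TGACNNNGC or TGAGNNNGC. Windows from RefSeq (GRCm38.p6), each from 250 bases before to 50 after an annotated start of transcription, were found for 8 of the 10 genes. At least 1 core, on either strand, was present in windows of 4 of these 8 genes, and in 4 of their 10 windows. Of all 32851 windows, 27.8% held a core (12.4% the form with C and 17.6% the form with G), so a match is a description of the letters and not a binding site. The windows with a match are shown. They are those of *Srxn1*, *Gclm* and *Txnrd1*, whose miR-709 arrays spread widely, and of *Nfe2l2*, the gene of NRF2, whose arrays did not. The miR-709 arrays of *Nqo1* spread more than those of *Gclm* and *Txnrd1*, and its window held no core. Capitals mark the core, and where it lies on the other strand the capitals read as its reverse complement. The *Srxn1* window (chr2:152105274-152105573, plus strand) held 3 cores, and the one that begins 45 bases before the start reads TGAGTCAGC, a form found in 0.414% of all windows. The *Gclm* window (chr3:122245307-122245606, plus strand) held 1 core. *Txnrd1* had 3 windows, of which that at chr10:82858956-82859255 (plus strand) held 1 core. The *Nfe2l2* window (chr2:75704614-75704913, minus strand) held 1 core.
Srxn1: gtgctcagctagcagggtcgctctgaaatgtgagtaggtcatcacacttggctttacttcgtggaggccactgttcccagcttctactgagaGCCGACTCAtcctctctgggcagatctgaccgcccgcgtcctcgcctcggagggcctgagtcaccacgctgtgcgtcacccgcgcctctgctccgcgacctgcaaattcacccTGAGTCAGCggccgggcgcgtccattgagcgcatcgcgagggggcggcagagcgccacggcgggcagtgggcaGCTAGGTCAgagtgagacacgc
Gclm: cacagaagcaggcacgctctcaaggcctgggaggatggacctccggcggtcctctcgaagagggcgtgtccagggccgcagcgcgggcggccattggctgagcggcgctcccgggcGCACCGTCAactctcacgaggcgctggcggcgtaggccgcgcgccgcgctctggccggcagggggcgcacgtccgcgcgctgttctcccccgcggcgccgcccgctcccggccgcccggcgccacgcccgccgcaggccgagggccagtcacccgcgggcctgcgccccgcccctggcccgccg
Txnrd1: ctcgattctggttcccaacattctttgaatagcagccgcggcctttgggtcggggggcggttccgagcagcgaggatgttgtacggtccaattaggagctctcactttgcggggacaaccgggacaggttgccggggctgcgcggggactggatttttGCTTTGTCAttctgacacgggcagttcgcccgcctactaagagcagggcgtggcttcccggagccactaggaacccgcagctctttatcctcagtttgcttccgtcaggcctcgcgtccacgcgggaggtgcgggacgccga
Nfe2l2: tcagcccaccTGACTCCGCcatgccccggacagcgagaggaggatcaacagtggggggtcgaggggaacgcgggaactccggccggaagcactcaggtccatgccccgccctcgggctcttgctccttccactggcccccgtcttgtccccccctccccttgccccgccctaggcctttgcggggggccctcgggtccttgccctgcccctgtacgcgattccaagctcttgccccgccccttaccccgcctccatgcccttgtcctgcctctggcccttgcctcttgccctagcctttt
The windows of *Keap1*, *Nqo1*, *Ephx1* and *Cat* held neither form of the core, which says only that these letters are not within these 300 bases.

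Between treatments, none of the 10 genes passed the adjusted threshold of limma in either direction. Over all genes tested 3.28% passed, 1.47% as lower and 1.81% as higher with miR-709. An unadjusted p under 0.05 was reached by 2 of the 10 (*Gclc* and *Cat*), against 15% of all genes, and the t-test of the methods called 0 of the 10 and 1.13% of all genes after adjustment, or 0 of the 10 and 4.7% of all genes at an unadjusted p under 0.01. The log2 fold change, miR-709 minus Cel-239b, was above 0 in 9 of the 10, and in 10946 of all 19938 genes. Its median was 0.18 for the 10, beside a median of 0.01 over all genes. Without miR-709 replicates C and D the median of the 10 was 0.05, and *Gclm*, *Txnrd1* and *Srxn1* were below 0. The 95% intervals of the 10 genes reached from -0.31 at the lowest to 0.70 at the highest on the log2 scale, so each interval excluded a 2-fold change between the treatments in either direction. The genes described first are the sensor and the factor, then the enzymes by role.

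**Figure D1:**
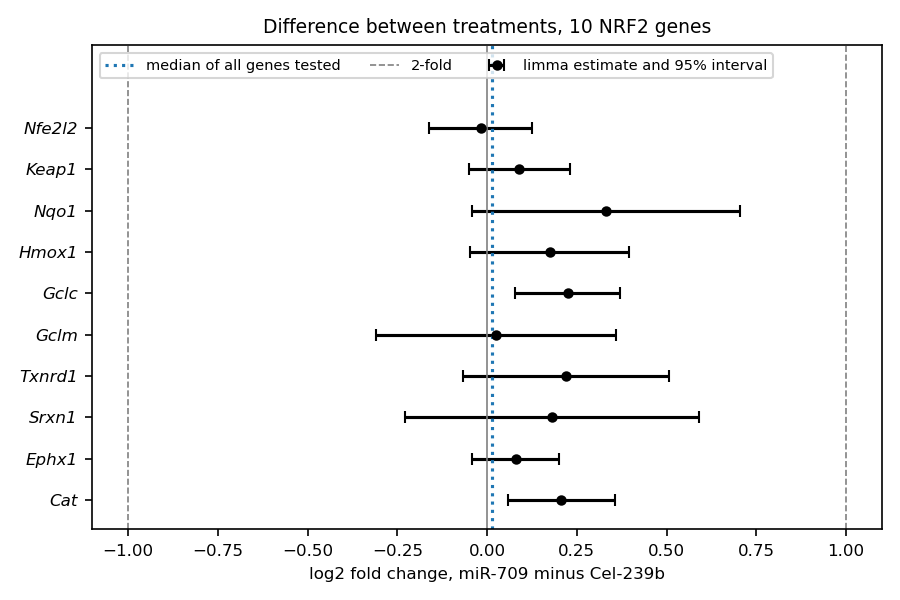
Log2 fold change, miR-709 minus Cel-239b (horizontal axis), of the 10 genes (rows), with the limma estimate as a dot and its 95% interval as a bar. Dashed lines mark a 2-fold change and the dotted line the median of all genes tested, 0.01. The widest intervals are those of *Srxn1* (-0.23 to 0.59), *Nqo1* (-0.04 to 0.70) and *Gclm* (-0.31 to 0.36).

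*Nfe2l2*, the gene of NRF2, had log2 signals of 10.34, 10.49 and 10.32 on Cel-239b replicates B, C and D and of 10.44, 10.35, 10.32 and 10.35 on miR-709 replicates A, B, C and D. The arrays of the treatments overlapped throughout. The log2 fold change, with its standard error (SE), was -0.02 (SE 0.06, adjusted p = 0.930), with a 95% interval of -0.16 to 0.13. *Keap1*, the gene of its cytoplasmic inhibitor, had 8.19, 8.12 and 8.24 with Cel-239b and 8.30, 8.20, 8.36 and 8.23 with miR-709. Replicates A and C of miR-709 lay above all Cel-239b arrays and B and D among them. The difference was 0.09 on the log2 scale (SE 0.06, adjusted p = 0.564) and 0.07 without C and D. The RNA of NRF2 is not a measure of its activity, which is set mostly by the stability of the protein.

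The step that limits glutathione synthesis joins glutamate to cysteine and is carried out by glutamate-cysteine ligase, a dimer of the catalytic subunit GCLC and the modifier subunit GCLM. *Gclc* had log2 signals of 12.32, 12.39 and 12.26 with Cel-239b and of 12.56, 12.43, 12.58 and 12.62 with miR-709. All 4 miR-709 arrays lay above the 3 Cel-239b arrays. The difference was 1.17-fold (0.22 on the log2 scale, SE 0.07, adjusted p = 0.126, 95% interval 0.08 to 0.37), and it did not pass the test in any of 16 alternatives (adjusted p = 0.0552 to 0.468). Without C and D it was 0.17. *Gclm* had 10.67, 10.63 and 10.60 with Cel-239b, the narrowest group but one of the 10 genes (SD 0.04). With miR-709 it had 10.38 on A and 10.40 on B, below every Cel-239b array, and 10.82 on C and 11.03 on D, above every one. The mean therefore differed by 0.02 (SE 0.15, adjusted p = 0.964), while the miR-709 arrays spread over 0.65 log2 units. Without C the fold change was -0.03, without D -0.10 and without both -0.24 (adjusted p = 0.174).

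*Txnrd1*, the cytosolic thioredoxin reductase, and *Srxn1*, sulfiredoxin, which restores overoxidised peroxiredoxins, showed a similar order of arrays. *Txnrd1* had 10.74, 10.66 and 10.85 with Cel-239b and 10.73, 10.76, 11.19 and 11.20 with miR-709. Replicates A and B lay among the Cel-239b arrays, and C and D above all of them. A log2 fold change of 0.22 resulted (SE 0.13, limma's adjusted p = 0.475), and one of -0.01 without C and D. *Srxn1* had 9.55, 9.77 and 9.77 with Cel-239b and 9.51, 9.59, 10.09 and 10.32 with miR-709. Replicate A was below every Cel-239b array, B was among them, and C and D were above. On the log2 scale the difference was 0.18 (SE 0.18, adjusted p = 0.705), 0.03 without D and -0.15 without C and D.

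*Nqo1*, which reduces quinones with electrons from NADH or NADPH, is often used as a readout of NRF2. It had 6.08, 5.83 and 6.14 with Cel-239b and 6.14, 6.01, 6.48 and 6.76 with miR-709. Replicate D was the highest array and C the next, with A and B within the range of Cel-239b. Its log2 fold change was the largest of the 10 at 0.33, or 1.26-fold (SE 0.17, adjusted p = 0.398), and was 0.06 without C and D. *Hmox1*, heme oxygenase, which opens the heme ring and releases iron, had 11.28, 11.50 and 11.40 with Cel-239b and 11.49, 11.38, 11.62 and 11.78 with miR-709. Again D was highest and C next, with A and B within the range of Cel-239b. Its difference was 0.17 on the log2 scale (SE 0.10, adjusted p = 0.458) and 0.04 without C and D.

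*Ephx1*, the microsomal epoxide hydrolase, and *Cat*, catalase, which breaks down hydrogen peroxide in peroxisomes, differed less among the miR-709 arrays. *Ephx1* had 11.46, 11.52 and 11.50 with Cel-239b and 11.61, 11.53, 11.55 and 11.60 with miR-709. The treatments did not overlap, by a margin of 0.01 between the nearest arrays. On the log2 scale they differed by 0.08 (SE 0.05, adjusted p = 0.550), and by 0.08 without C and D. *Cat* had 11.69, 11.76 and 11.81 with Cel-239b and 11.91, 11.88, 11.97 and 12.08 with miR-709, again without overlap. This was 1.15-fold (0.21 on the log2 scale, SE 0.07, adjusted p = 0.165, 95% interval 0.06 to 0.36) and did not pass in any of 16 alternatives (adjusted p = 0.0903 to 0.495). Without C and D it was 0.14. Groups without overlap and higher with miR-709 were thus found in 3 of the 10 genes (*Gclc*, *Ephx1* and *Cat*), against 7.44% of all genes, and without overlap and lower in 0 of the 10, against 4.91%.

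**Figure D2:**
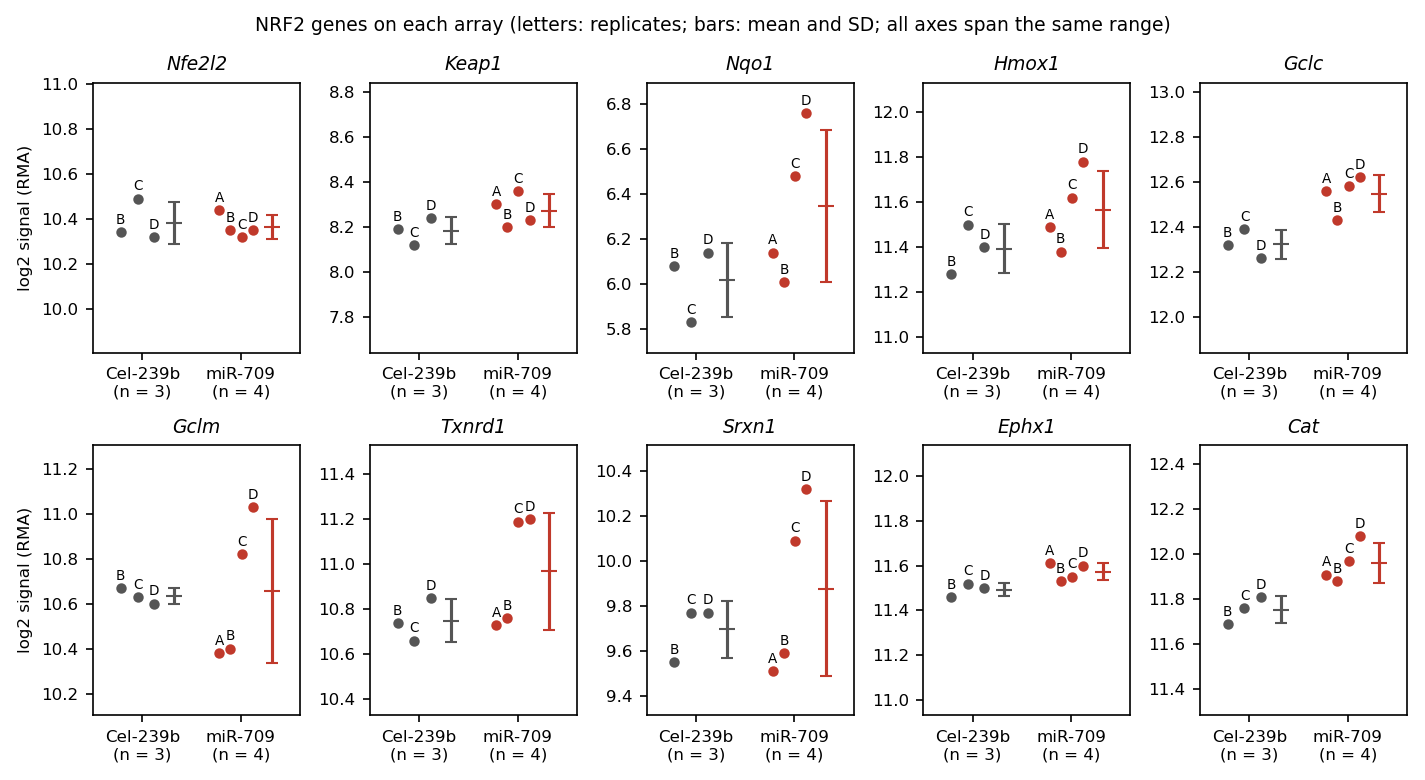
Log2 signal (RMA, vertical axis) of each gene on the 3 Cel-239b arrays (grey) and the 4 miR-709 arrays (red), with replicate letters above the points and the mean and SD beside them. Axes do not start at 0, and all span the same range. *Gclc*, *Ephx1* and *Cat* have all red points above the grey ones. Replicates C and D lie above A and B for *Nqo1*, *Gclm*, *Txnrd1* and *Srxn1*, and by smaller margins also for *Hmox1*, *Gclc* and *Cat*.

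The 10 genes differed in how far the miR-709 arrays spread. The SD over the 4 miR-709 arrays was 0.39 for *Srxn1*, 0.34 for *Nqo1*, 0.32 for *Gclm* and 0.26 for *Txnrd1*, beside a median of 0.09 over all genes. A larger SD was found in 0.316% of all genes for *Srxn1*, 0.542% for *Nqo1*, 0.652% for *Gclm* and 1.87% for *Txnrd1*. *Hmox1* was intermediate (SD 0.17, with a larger SD in 10.9% of genes). Over the 3 Cel-239b arrays the SD of *Srxn1*, *Nqo1*, *Gclm* and *Txnrd1* was 0.13, 0.16, 0.04 and 0.10, beside a median of 0.10. *Nfe2l2*, *Keap1*, *Gclc*, *Ephx1* and *Cat* had SDs of 0.04 to 0.09 with miR-709. Replicate C lay above every Cel-239b array for 9 of the 10 genes and D for 8, where over all genes C did so for 29.4% and D for 27.6%. Replicate A did so for 4 of the 10 (25.5% of all genes) and B for 3 (27.9%). These counts are a description, since this pattern was seen in the arrays before it was counted. It was much weaker over the 89 further genes measured from the lists by role below. There, replicates C and D exceeded every Cel-239b array for 44.9% and 47.2% of the genes, while replicates A and B did for 40.4% and 33.7%. The interferon genes were high on the same arrays, C and D. The mean of the cholangiocyte list, and *Krt19* and *Sox9* within it, were lowest there. *Krt7* and *Cftr* of that list were not, and *Epcam* was lowest on D but at the Cel-239b level on C. What part the interferon and cholangiocyte genes have in the pattern was not tested. Cel-239b replicates C and D bear the same letters, and there the 10 genes had values from -0.19 to 0.12 relative to the Cel-239b mean. On Cel-239b replicates B, C and D the 10 genes averaged -0.031, 0.004 and 0.026 relative to that mean. The interferon genes averaged -0.17, -0.08 and 0.25 on the same arrays.

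**Figure D3:**
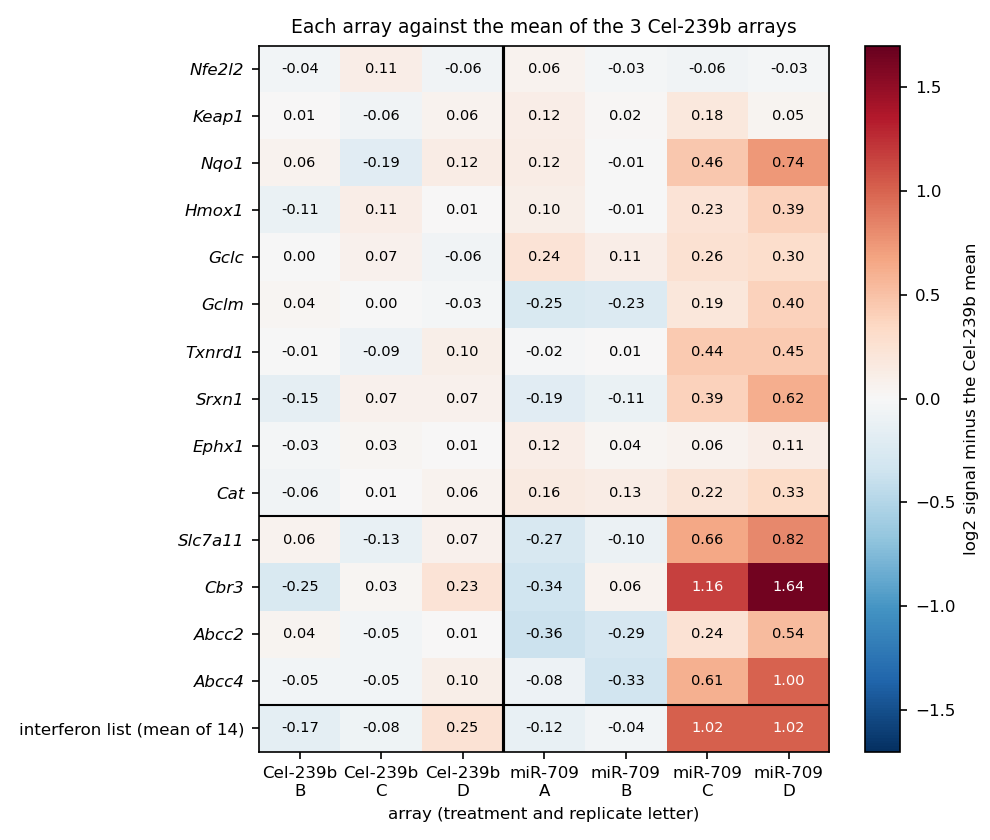
Log2 signal of each array minus the mean of the 3 Cel-239b arrays (colour and number) for the 10 genes, 4 further NRF2-linked genes chosen after their values were seen, and the mean of 14 interferon response genes. Columns are arrays, with Cel-239b left of the vertical line and miR-709 right of it. On miR-709 replicates C and D *Nqo1* stands at 0.46 and 0.74, *Srxn1* at 0.39 and 0.62, *Cbr3* at 1.16 and 1.64 and the interferon mean at 1.02 and 1.02.

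Outside the 10, 97 genes of the response and its neighbours were listed by role and 89 were measured. Of the 89, 4 were higher and 1 was lower with miR-709 and 84 did not pass, with a median log2 fold change of 0.06. The shares called over all genes were 1.81% higher and 1.47% lower. Without miR-709 replicates C and D, no listed gene was called higher, and *Abcc1* replaced *Txn2* as the gene called lower.

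Among 12 genes that regulate NRF2, *Sqstm1* was higher and 11 did not pass. *Sqstm1* encodes p62, an autophagy adaptor that binds KEAP1 and is itself an NRF2 target. It had log2 signals of 12, 12.20 and 12.05 with Cel-239b and of 12.48, 12.42, 12.71 and 12.69 with miR-709. All miR-709 arrays, A and B included, were above the Cel-239b arrays, with C and D highest. This was 1.41-fold (0.49 on the log2 scale, SE 0.09, adjusted p = 0.0169). The call was lost with the t-test of the methods after adjustment (adjusted p = 0.143, although its unadjusted p of 0.00446 was under 0.01), without Cel-239b replicate B (0.0856) or D (0.0665), and without miR-709 replicate C (0.0554), D (0.0621) or both (0.138), and held in 10 of 16 alternatives (0.00772 to 0.143). *Bach1*, a repressor that competes with NRF2 for its elements, and *Cul3*, the scaffold of the ligase that degrades NRF2, had no overlap between treatments but did not pass (log2 fold changes 0.17 and 0.26, limma's adjusted p = 0.25 and 0.127). The same held for *Dpp3*, also of this list (0.30, adjusted p = 0.0823). Of the 12 genes, 4 were without overlap and higher with miR-709 and 0 lower, against 7.44% and 4.91% of all genes.

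Among 15 genes of glutathione synthesis, recycling and use, *Oplah* was higher and 14 did not pass. *Oplah*, 5-oxoprolinase, returns 5-oxoproline to glutamate for glutathione synthesis. It had 8.14, 8.22 and 8.34 with Cel-239b and 8.75, 8.63, 8.61 and 8.43 with miR-709, where D was the lowest of the miR-709 arrays. It was higher by 0.37 on the log2 scale (SE 0.08, adjusted p = 0.0474). *Gss*, glutathione synthetase, which adds glycine in the last step (log2 fold change 0.32, adjusted p = 0.0872), and *Gsr*, glutathione reductase (0.35, adjusted p = 0.0893), had no overlap between treatments and did not pass, although both passed once genes averaging under a log2 signal of 5 were left out (adjusted p = 0.0464 and 0.0470), and without C and D their differences were 0.21 and 0.22 on the log2 scale. Of the 15 genes, 4 were without overlap and higher with miR-709 and 1 lower, against 7.44% and 4.91% of all genes. *Slc7a11*, the cystine importer that supplies cysteine, had 9.87, 9.68 and 9.88 with Cel-239b and 9.54, 9.71, 10.47 and 10.63 with miR-709. This is the order of arrays seen for *Gclm* and *Srxn1*, with a difference of 0.28 on the log2 scale (SE 0.24, adjusted p = 0.661) and of -0.19 without C and D.

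Among 13 thioredoxin, peroxiredoxin and related genes, *Txn2* was lower and 12 did not pass. *Txn2*, the mitochondrial thioredoxin, had 10.80, 10.87 and 10.97 with Cel-239b and 10.59, 10.59, 10.64 and 10.65 with miR-709, 1.2-fold lower (-0.26 on the log2 scale, SE 0.06, adjusted p = 0.04998). The call sat at the threshold, was lost without any single array (adjusted p = 0.0555 to 0.139) and stood in 5 of 16 alternatives. None of the 4 superoxide dismutase genes passed, the lowest p being that of *Sod1* (log2 fold change 0.10, adjusted p = 0.597, with 0.03 without Cel-239b replicate C and 0.17 without Cel-239b replicate D). None of 7 genes of heme breakdown and iron storage passed, among them *Blvra*, biliverdin reductase, which takes up the product of heme oxygenase (0.27, adjusted p = 0.126). None of 6 genes of NADPH supply passed, among them *Idh1*, the cytosolic isocitrate dehydrogenase (0.24, SE 0.06, adjusted p = 0.0647). *Idh1* did pass in 2 of 16 alternatives (0.0284 to 0.298).

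Among 12 genes of quinone and carbonyl detoxification, *Nqo2* was higher and 11 did not pass. *Nqo2*, a quinone reductase related to *Nqo1*, had 9.51, 9.48 and 9.45 with Cel-239b and 9.78, 9.78, 9.64 and 9.78 with miR-709. In contrast to *Nqo1*, replicates A and B were as high as D and C was the lowest. It was higher by 0.27 on the log2 scale (SE 0.06, adjusted p = 0.0458). *Cbr3*, a carbonyl reductase, had 6.21, 6.49 and 6.69 with Cel-239b and 6.12, 6.52, 7.62 and 8.10 with miR-709. Its SD of 0.93 over the miR-709 arrays was exceeded by 0.0150% of all genes, and its difference of 0.63 on the log2 scale (SE 0.41, adjusted p = 0.539) was -0.14 without C and D.

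Among 14 glutathione transferases, *Gstm3* was higher and 13 did not pass. *Gstm3* had 10.37, 11.10 and 10.66 with Cel-239b and 11.44, 11.25, 11.38 and 11.41 with miR-709, so that here the control arrays were the more spread (SD 0.37 against 0.08). Its difference was 0.66 on the log2 scale (SE 0.14, adjusted p = 0.0411), 0.49 without Cel-239b replicate B (adjusted p = 0.113) and 0.86 without Cel-239b replicate C (0.00730). *Gstm3* had more than 1 probe set, and these values are of the brightest. Averaging its probe sets gave 0.79 on the log2 scale (limma's adjusted p = 0.0108). Probes for mu-class transferases can take up transcripts of their close relatives, so the value may not be of *Gstm3* alone. *Gsta4*, which conjugates products of lipid peroxidation, had 9.20, 8.92 and 8.97 with Cel-239b and 9.25, 9.27, 9.91 and 9.89 with miR-709, a difference of 0.55 on the log2 scale (SE 0.18, adjusted p = 0.163) that was 0.23 without C and D. None of the 6 exporters passed. *Abcc1*, a glutathione conjugate exporter, had 7.12, 7.01 and 7.11 with Cel-239b and 6.18, 6.24, 6.74 and 7.01 with miR-709 (-0.54 on the log2 scale, adjusted p = 0.192), and was lower without C and D (-0.87, adjusted p = 0.0118). *Abcc2* and *Abcc4*, exporters of conjugates into bile and blood, lay below every Cel-239b array on A and B and above every one on C and D.

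**Figure D4:**
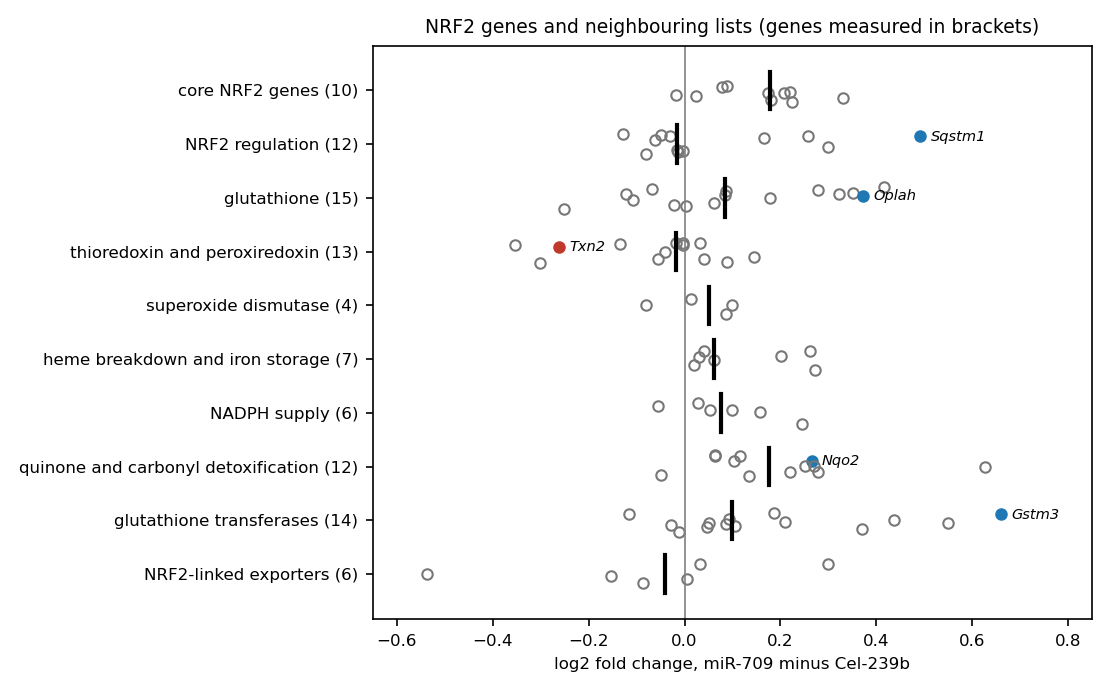
Log2 fold change, miR-709 minus Cel-239b (horizontal axis), of every measured gene (dots) of the 10 core NRF2 genes and of 9 lists of related genes (rows, with the number measured). Filled dots passed limma (blue higher, red lower), black bars are list medians, and vertical scatter within a row only separates the dots. The 5 filled dots are *Sqstm1*, *Oplah*, *Nqo2* and *Gstm3* on the right and *Txn2* on the left.

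The calls of *Oplah*, *Nqo2* and *Gstm3* were the less firm ones of the 4 higher genes. *Oplah* and *Nqo2* each held in 5 of 16 alternatives (adjusted p = 0.0240 to 0.212 and 0.0253 to 0.187), and *Gstm3* in 7 of 16 (0.00730 to 0.323). Leaving out 1 array ended the call of *Oplah* except for miR-709 replicate D, that of *Nqo2* except for miR-709 replicate C, and that of *Gstm3* except for Cel-239b replicate C. *Slc7a11*, *Cbr3*, *Gsta4*, *Gss*, *Gsr*, *Bach1*, *Cul3*, *Dpp3*, *Abcc2*, *Abcc4*, *Sox9*, *Krt7*, *Cftr* and *Epcam* are named here after their values were seen.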

How the data were processed

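Affymetrix Mouse Gene 1.0 ST arrays, 1 per replicate, were used for total RNA. The authors deposited 1 log2 signal for each probe set and array, made in Partek with RMA in versions not given in the sources used here. Raw scans were not used here, so the background correction could not be varied. Of 28853 probe sets, 21789 had 1 gene symbol, 1621 several and 5443 none. Of those with 1 symbol, 21698 were matched by gene number and took the RefSeq symbol, whether or not it differed. Where a gene had more than 1 probe set (999 genes), the brightest stood for it. Treatments were compared in limma 3.58.1 (R 4.3.3) over all 19938 genes, 2-sided, with Benjamini-Hochberg adjustment, and a gene was called at an adjusted p under 0.05. The methods' 1-way ANOVA, for 2 groups a t-test, was an alternative, with adjustment and, added after seeing the data, at an unadjusted p under 0.01, the threshold the study applied to these arrays. The script was tested on simulated data. Precision is limited by how few arrays there are (median standard error 0.08). Correlations between arrays were 0.997 to 0.998 within and 0.995 to 0.997 between treatments.

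The 10 genes and the gene lists were chosen with earlier results of these data known. Named were the 10 genes, every listed gene called (up to 12 in each direction), the gene of lowest p in a list without calls, and those marked as named after their values were seen. Listed genes without a probe set of a single symbol (*Ggt1*, *Prdx5*, *Prdx6*, *G6pdx*, *Akr1b3*, *Htatip2*, *Gsta1* and *Gsta2*) were not used here. The alternatives were limma-trend, the t-test, testing every probe set, averaging a gene's probe sets, a mean log2 signal of at least 5, cyclic loess, median centring, the replicate letter as a block, each array left out, and, added after seeing the data, both miR-709 replicates C and D left out. Sequences are from RefSeq (GRCm38.p6).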

Additional observations from a re-analysis of the deposited data

Results flagged for a closer look

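*Nqo2* on miR-709 replicate C, at a log2 signal of 9.64, lay apart from the other 3 miR-709 arrays, which all had 9.78, so that the gap made up the whole range of the group. It was the only such case among 29 genes examined, and chance gives about 1 in 20 groups.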

How the results depend on the processing

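In all 16 alternatives, and with the t-test of the methods at an unadjusted p under 0.01, 0 of the 10 genes were called lower and 0 higher. Their median log2 fold change of 0.18 stayed above 0, at 0.10 to 0.24 when 1 array was left out and 0.05 without miR-709 replicates C and D. Of the 89 listed genes, 4 were called higher and 1 lower. With the t-test of the methods these counts were 0 and 0 after adjustment, and 4 and 2 at an unadjusted p under 0.01 (*Sqstm1*, *Oplah*, *Nqo2* and *Idh1* higher, *Txn2* and *Txn1* lower, *Txn1* being named after its values were seen). With the replicate letter as a block they were 2 and 0. No Cel-239b array bears the letter A, so the block gives miR-709 replicate A no weight in the fold changes. All probe sets gave 0 lower, cyclic loess gave 2 higher, and leaving out miR-709 replicates C and D gave 0 higher. A mean log2 signal of at least 5 kept 83 of the listed genes and gave 9 higher. Of all 10970 genes kept by that setting, 485 were called higher and 354 lower. Leaving out 1 array gave 0 to 2 higher and 0 to 1 lower. Over all genes, 293 lower and 361 higher became 113 and 113 with the t-test after adjustment, 378 and 560 at its unadjusted threshold, 221 and 180 with the block, 92 and 76 without miR-709 replicates C and D, and 181 to 244 and 180 to 294 with 1 array left out. The causes were not tested. Signs turned for genes with a difference near 0 or with miR-709 arrays on both sides of the Cel-239b mean. *Nfe2l2* ranged from -0.05 to 0.035 (the latter lacking Cel-239b replicate C) when 1 array was left out, and had 0.012 without both miR-709 replicates C and D. Without C and D the log2 fold change was -0.24 for *Gclm*, -0.0050 for *Txnrd1*, -0.15 for *Srxn1*, -0.19 for *Slc7a11*, -0.14 for *Cbr3*, -0.33 for *Abcc2* and -0.21 for *Abcc4*. Without C alone it was -0.03 for *Gclm* and -0.04 for *Abcc2*, and without D alone -0.10 and -0.14, while the highest value with 1 array left out was 0.12 for *Gclm* and 0.16 for *Abcc2*. The replicate letters were not taken to pair the arrays, since nothing says what they mark. Deviations of same-lettered arrays correlated at 0.02 (B), 0.02 (C) and 0.05 (D), and 2 of 3 Cel-239b arrays were closest to their own letter. With so few arrays, these values cannot decide whether the letters pair them. As only 7 arrays were made, small differences may not be seen.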
